A study of Homo sapiens with 28 samples.

Results

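The sites described here are regions of the human genome at which a peak of the ASH1L-CTD was listed in every one of 6 ChIP-seq experiments. They are the peaks of replicate 1 without UV that overlapped, by at least 1 bp, a peak in each of the other 5 CTD lists, leaving out the ASH1L gene (chr1:155335268-155563162, hg38), from which the transfected construct itself is derived. Of 500000 peaks in that list, 7134 (1.43% of those outside ASH1L) met this rule, and a further 13 inside ASH1L were left out. The sites were thus chosen by the presence of CTD peaks in these lists, so every CTD value below is a description without a test. H3K36me2, dimethylation of lysine 36 of histone H3, was measured in other cells and was not used in the choice.

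The CTD experiments were carried out in U2OS cells, an osteosarcoma line, in which ASH1L had been knocked out by CRISPR/Cas9 and colonies isolated. The knockout cells transiently expressed a Flag-tagged C-terminal part of ASH1L under a CMV promoter, and control libraries came from ASH1L-/- cells transfected with empty vector. Non-irradiated cells were examined in 3 biological replicates, and another 3 replicates were collected 3 h after 20 J/m2 of UV-C. H3K36me2 was measured in wild-type U2OS cells, which carry ASH1L, in 2 replicates without UV and 2 at 3 h after the same dose. CTD and H3K36me2 were therefore never measured in the same cells, and all CTD values come from an expressed fragment and not from the endogenous protein. Each of the 10 lists holds 500000 broad peaks sorted by their p-value, and the read depth behind single peaks is unknown from the lists. The weakest listed CTD peak had a −log10 p between 1.22 and 1.35, below 2, the −log10 of the stated p-value cutoff of 0.01. How the value listed for a broad peak relates to that cutoff is not stated. CTD replicate 2 without UV stood apart at the construct's own gene, where its highest fold enrichment was 5.87, against 18.1 to 41.2 in the other 5 lists. Without that list 13754 sites were shared by the remaining 5, and 55.1% of these lay under an H3K36me2 peak without UV and 45.8% at 3 h.

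ASH1L is a histone methyltransferase of the trithorax group. Its C-terminal part holds the catalytic SET domain together with a bromodomain, a PHD finger and a BAH domain, modules known to contact chromatin. H3K36me2 is laid down mainly by the NSD enzymes and also by ASH1L. In mammalian cells it is known to spread over broad intergenic domains and gene bodies, while active promoters carry little of it. Nucleotide excision repair removes the DNA lesions that UV-C light produces.

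Sequences of 3 of the sites are printed to show how unlike each other they are. They comprise the site that ranked 2 by CTD fold enrichment in its weakest list and the leading 2 sites by H3K36me2. Each is a window of 300 bases around the centre of the site on the plus strand of hg38, 5′ to 3′, with CpG dinucleotides in capitals. At the 289 bp site near PTPRN2 the window runs past both ends of the peak. The site near PTPRN2 is chr7:158595112-158595411, is intergenic and holds 2 CpG. Much of its window repeats short units rich in g, such as ggtggt and ggtgat, and repeat content was not measured. The site nearest to NRG3 is chr10:81655973-81656272, is intergenic and holds 3 CpG. The LINC03036 site is chr10:118842467-118842766, lies in an intron of that long non-coding RNA gene and holds 7 CpG. Their GC contents were 53%, 57% and 65.7%, in this order.
PTPRN2 site: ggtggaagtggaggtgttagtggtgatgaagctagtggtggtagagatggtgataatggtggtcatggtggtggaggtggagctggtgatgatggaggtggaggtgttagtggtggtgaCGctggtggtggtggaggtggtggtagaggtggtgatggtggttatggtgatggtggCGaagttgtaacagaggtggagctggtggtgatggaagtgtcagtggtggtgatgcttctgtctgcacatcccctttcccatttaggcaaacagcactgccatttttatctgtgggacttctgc
NRG3 site: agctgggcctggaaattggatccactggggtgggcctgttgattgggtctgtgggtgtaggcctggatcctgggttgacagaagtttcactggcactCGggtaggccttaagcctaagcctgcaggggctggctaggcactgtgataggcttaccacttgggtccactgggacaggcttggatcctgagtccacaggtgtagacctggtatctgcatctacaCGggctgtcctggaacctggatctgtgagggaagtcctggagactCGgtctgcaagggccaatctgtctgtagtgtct
LINC03036 site: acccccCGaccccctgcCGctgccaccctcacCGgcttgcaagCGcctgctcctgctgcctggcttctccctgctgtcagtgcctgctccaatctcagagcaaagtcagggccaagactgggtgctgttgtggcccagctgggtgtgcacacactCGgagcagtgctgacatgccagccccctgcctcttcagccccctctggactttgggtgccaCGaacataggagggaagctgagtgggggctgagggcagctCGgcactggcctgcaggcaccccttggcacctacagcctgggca

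The sites were wide rather than strong. Their median width was 1516.5 bp, with quartiles of 942.25 and 2277 bp and a range from 170 to 13890 bp, against a median of 506 bp for the other 492824 peaks outside ASH1L. Width rose with every further list in which a peak was shared, from a median of 321 bp for the 105791 peaks found in no other list to 437, 571, 769 and 1086 bp for peaks found in 1, 2, 3 and 4 other lists. Fold enrichment did not follow, with medians between 1.770 and 1.777 in all 6 of these classes. A wide peak has more bases in which a peak of another list can fall, so width entered the choice of the sites.

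CTD fold enrichment, the ratio of the Flag ChIP signal to the empty-vector control, was close to that of an ordinary peak in each list. The medians over the 7134 sites were 1.78, 1.73 and 1.81 in replicates 1, 2 and 3 without UV, and 1.797, 1.79 and 1.77 in replicates 1, 2 and 3 at 3 h. The medians of all peaks outside ASH1L in the same lists were 1.77, 1.72, 1.82, 1.799, 1.81 and 1.77. Outside replicate 1 without UV a site took the highest of its overlapping peaks, which can only raise its value. With the peak that shared most bases, replicates 2 and 3 without UV gave 1.717 and 1.795, against 1.724 and 1.824 for all peaks. At 3 h this gave 1.782, 1.776 and 1.758 against 1.799, 1.808 and 1.766, lower in each of these lists. In replicate 1 without UV, 5.10% of the sites reached a −log10 p of 2, as did 8.27% of all its peaks. Outside this list a site took the highest −log10 p of its overlapping peaks, which can only raise the shares and counts that follow. The corresponding shares were 6.78% against 5.86% and 7.20% against 6.57% in replicates 2 and 3 without UV. At 3 h they were 6.83% against 6.47%, 7.67% against 8.41% and 10.0% against 8.04%. Of the 7134 sites, 4548 (63.8%) did not reach this value in any list, 2121 reached it in 1 list, 417 in 2 lists, 41 in 3, 3 in 4, 2 in 5 and 2 in all 6.

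The values of single sites were only loosely related between lists. Across the 7134 sites, Spearman's rho of fold enrichment between pairs of lists lay between 0.0463 and 0.140 over the 15 pairs, which share the same cells and, at 3 h, the same pooled control. The median range of a site over its 6 values was 0.304. The median difference of the 3 h mean minus the no UV mean was 0.0156, and 5% of the sites lay below −0.161 and 5% above 0.206. All 3 values at 3 h exceeded all 3 values without UV at 450 sites (6.31%), and all 3 were lower at 268 sites (3.76%). The 3 h lists used a pooled empty-vector control and those without UV a matched one. Each 3 h value was also the highest of the overlapping peaks, while replicate 1 without UV kept its own peak. These differences cannot be told apart from those steps. How often 6 values in random order would give all 3 higher or all 3 lower was not compared.

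The rule counted an overlap of 1 bp. The smallest of a site's 5 overlaps had a median of 170 bp with quartiles of 97.25 and 271.75 bp, which at the median site was 11.3% of the peak. At 18 sites it was 1 bp, among them a 1340 bp peak at chr11:61368501-61369840 with a fold enrichment of 1.78 and a 454 bp peak at chr5:61711633-61712086 with 1.75. Just outside the threshold, 14 peaks shared with 4 of the lists had a peak of the missing list directly next to them. They included chr5:180016049-180016641 with a fold enrichment of 2.14 and chr10:95768969-95769662 with 2.10. In 186 sites at least 50% of the peak was covered in each of the other lists.

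A base that lay under a peak in all 6 lists at once was held by 1272 of the 7134 sites (17.8%). In the other 5862 sites no base lay under a peak in all 6 lists, and how many lists shared a base there was not measured. The common bases formed 1276 regions with a median width of 108.5 bp, 0.170 Mbp in all. The sites that held them were narrower than the rest (853.5 bp against 1675.5 bp at the median) and no stronger, with a median fold enrichment of 1.78 in both. Their GC content was also alike, 49.3% against 49.7% at the median.

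The strongest sites were ranked by the lowest of their 6 CTD values, which reached 1.8 or more at 87 sites. The leading site is 296 bp wide and lies in an intron of OR2T1, an olfactory receptor gene. It had fold enrichments of 2.01, 2.13 and 2.36 without UV and of 1.93, 2.40 and 2.18 at 3 h. The second, chr7:158595118-158595406, lies 7439 bp from the start of PTPRN2, which encodes a receptor-type tyrosine phosphatase-like protein of secretory vesicles. Its values were 2.01, 1.91 and 2.77 without UV and 2.57, 2.48 and 2.07 at 3 h. These are the 2 sites that reached a −log10 p of 2 in all 6 lists, and at both the values without UV and at 3 h overlapped. The third, chr17:42507919-42511495, is 3577 bp wide and touches a coding exon of ATP6V0A1, a subunit of the vacuolar proton pump. It had 1.89, 1.93 and 2.06 without UV and 2.15, 2.21 and 2.04 at 3 h, so 1 of the 3 h values fell within the range without UV.

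The sites ranked 4 to 10, which were 262 to 4190 bp wide, comprised an intron of PLEKHH2 on chromosome 2 (lowest value 1.89), an intergenic site near TSGA13 on chromosome 7 (1.88), an intron of EYS on chromosome 6 (1.88), intergenic sites nearest to NETO1 on chromosome 18 (1.88) and ADAMTS16 on chromosome 5 (1.88), an intergenic site nearest to RRAGC on chromosome 1 (1.87), and a 4190 bp site in PTPRU on chromosome 1 (1.87). Of the 10 leading sites, those in EYS, PTPRU and near PTPRN2 and ADAMTS16 lay under a peak in all 4 H3K36me2 lists. Those of OR2T1, TSGA13 and RRAGC lay under none. The next sites under no H3K36me2 peak were chr9:88483509-88484686, nearest to NXNL2 (lowest value 1.86), and a 7176 bp site that touches GAS2L2 on chromosome 17 (1.85).

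**Figure D1:**
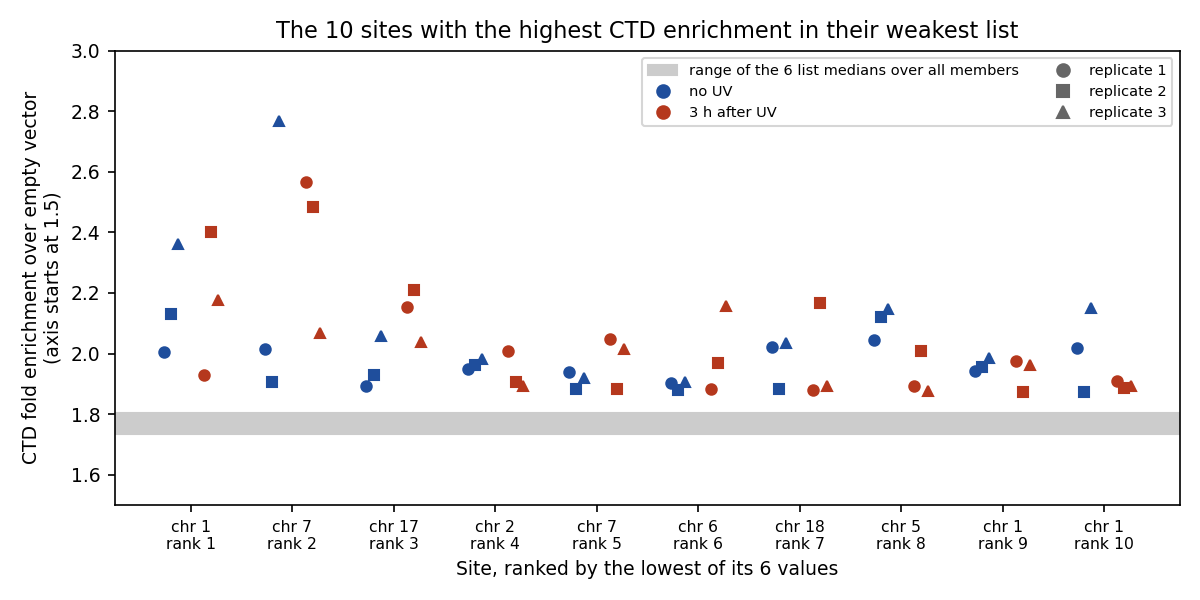
CTD fold enrichment over the empty-vector control (vertical axis, linear, starting at 1.5) at the 10 sites with the highest value in their weakest list, with replicates 1 to 3 as circles, squares and triangles, no UV in blue and 3 h after UV in red. All 60 points lie above the grey band, which spans the 6 list medians over all 7134 sites (1.73 to 1.81), and only the leading 2 sites have values above 2.3.

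The question put to these sites was whether they also lie under H3K36me2 peaks. Over all listed H3K36me2 peaks, the weakest of which had a −log10 p of 1.34 to 1.42, 5151 of 7134 sites (72.2%) overlapped a peak in at least 1 of the 4 H3K36me2 lists, as did 59.6% of the other peaks. The shares were 56.0% and 58.8% in replicates 1 and 2 without UV and 46.3% and 47.3% in replicates 1 and 2 at 3 h, where 40.4%, 40.4%, 35.7% and 36.5% of all peaks of the same CTD list did. An overlap in all 4 lists was found at 2332 sites (32.7%, against 18.9% of all peaks), and in none at 1983 sites (27.8% against 40.2%). Compared with the other peaks of the CTD list, the sites were under H3K36me2 more often by 14.1 ± 3.84 percentage points (SD, n = 4 lists), in 4 of 4 lists. The two-sided exact sign-flip permutation test gave p = 0.13, the smallest that 4 lists allow. Peaks shared with 4 other CTD lists, the class most like the sites, lay closer to them. They gave 52.7% and 54.1% without UV and 43.7% and 45.0% at 3 h. When only H3K36me2 peaks with a listed −log10 p of at least 2 were counted, 33.1% of the sites lay under one without UV and 26.0% at 3 h. The gap to the other peaks was then 9.55 ± 2.78 points (SD, n = 4 lists, exact sign-flip p = 0.13).

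Part of this gap moved with the width of the sites. With only the centre base of each peak examined, 34.7% and 35.6% of the sites lay under H3K36me2 without UV and 26.1% and 27.3% at 3 h, against 29.4%, 28.7%, 25% and 25.9% of all peaks. The gap to the other peaks was then 3.74 ± 2.91 points, again in 4 of 4 lists (SD, n = 4; exact sign-flip p = 0.13). It was 6.19 points without UV and 1.29 at 3 h, where any overlap gave 17.2 and 10.9. The SD over the 4 lists thus includes the difference between conditions. At the centre base, peaks shared with 4 other CTD lists gave 35.3% and 34.6% without UV and 27.1% and 28.1% at 3 h. These lie above the sites in each list but replicate 2 without UV. Among the widest peaks (859 to 13890 bp), which included 5599 of the sites, the gap was 5.13 ± 2.17 points for any overlap (4 of 4 lists, exact p = 0.13). At the centre base it was 1.28 ± 1.704 points, higher in 2 of 4 lists (SD, n = 4; exact p = 0.5). Among peaks of 281 to 512 bp, which included 431 of the sites, it was 10.1 ± 2.04 points at the centre base, in 4 of 4 lists (SD, n = 4; exact p = 0.13).

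**Figure D2:**
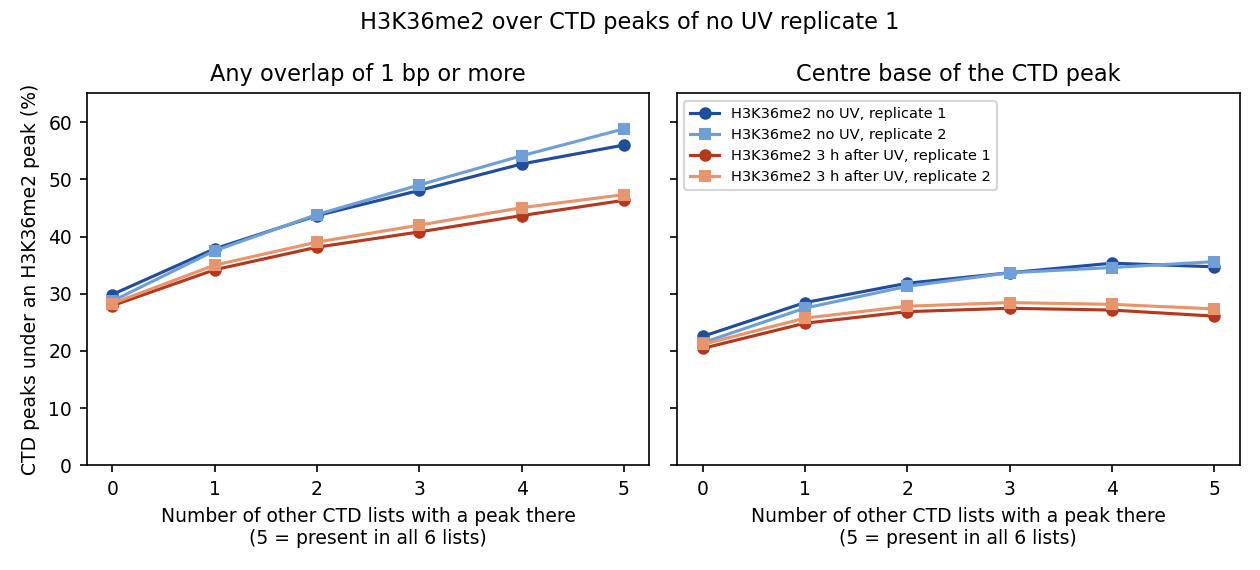
Percent of CTD peaks of replicate 1 without UV under an H3K36me2 peak (vertical axis) against the number of other CTD lists with a peak there, for any overlap (left) and for the centre base (right), with 1 line per H3K36me2 list. For any overlap all 4 lines rise up to the sites present in all 6 lists (46.3% to 58.8%), whereas at the centre base they change little from 3 other lists onward.

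At the centre base, but not for any overlap without UV, the gap was larger at sites where the 6 CTD lists met on the same bases. At the centre of the 1276 common regions, 40.6% and 42.2% lay under H3K36me2 without UV and 33.6% and 36.4% at 3 h, whereas the centres of the other peaks gave 29.3%, 28.6%, 24.98% and 25.9%. This is a gap of 11.0 ± 2.06 points in 4 of 4 lists (SD, n = 4; two-sided exact sign-flip p = 0.13). At the peak centres of the 1272 sites that held such a region the gap was 9.79 ± 1.91 points (SD, 4 of 4 lists, exact p = 0.13). At the centres of the 5862 sites without one it was 2.43 ± 3.18 points (SD, 2 of 4 lists, exact p = 0.5). The sites with common bases exceeded those without by 7.37 ± 1.86 points in 4 of 4 lists (SD, n = 4; exact sign-flip p = 0.13). The former were narrower, 853.5 bp against 1675.5 bp at the median, and the centre-base gap also moved with width. They were not compared at equal width, so the part of width in this difference was not tested. For any overlap, the 1272 narrower sites with common bases gave 54.3% and 54.5% without UV, below the 56.0% and 58.8% of all 7134 sites, and 47.6% and 49.6% at 3 h, above their 46.3% and 47.3%. Divided by GC content into 4 groups of peaks from the lowest to the highest, the sites with common bases lay 5.41, 6.83, 7.49 and 7.29 points above the other peaks at their centres, in 4 of 4 lists each (exact p = 0.13 each). The common regions and this division were examined only after the data had been seen.

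H3K36me2 around the sites had a narrow summit. The share of positions under an H3K36me2 peak was highest at the centre of the sites in each list, and at 2 kb either side it had come down to 22.0% and 22.4% without UV and to 16.2% and 16.4% at 3 h. From 15 to 20 kb it was 22.0% and 22.3% without UV and 16.8% and 17.01% at 3 h. Around the other CTD peaks the shares from 15 to 20 kb were 19.4%, 19.0%, 16.1% and 16.6%, lower than around the sites in each list. At 2 kb they were 19.8% and 19.4% without UV, below the sites, and 16.3% and 16.8% at 3 h, slightly above them. The centre stood 1.55 to 1.61 times above the surroundings at the sites and 1.51 to 1.56 times at the other peaks.

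**Figure D3:**
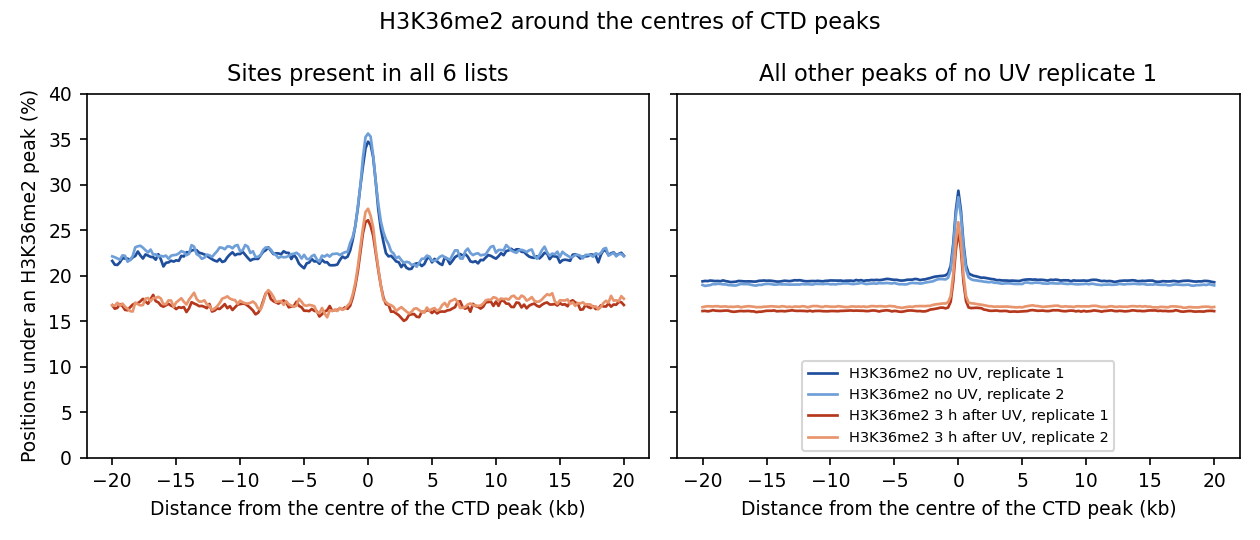
Percent of positions under an H3K36me2 peak (vertical axis) by distance in kb from the centre of the CTD peak, for the 7134 sites (left) and the other peaks of the list (right), in 200 bp steps, with 1 line per H3K36me2 list. Both panels show a summit at the centre, broader at the sites, and the lines without UV (blue) lie above those at 3 h (red) at the centre and at 20 kb alike.

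After UV fewer of the sites lay under H3K36me2. The mean share went from 57.4 ± 2.002% without UV to 46.8 ± 0.704% at 3 h (SD, n = 2 lists each), a difference of −10.6 points, and both lists at 3 h were below both lists without UV. The two-sided exact permutation test gave p = 0.33, the smallest possible for 2 lists against 2, so this design cannot pass 0.05. Without CTD replicate 1 without UV, on whose peaks the sites are based, the difference was −6.22 points, and for the 186 sites with at least 50% overlap in each list it was −4.84 points. The other CTD peaks went from 40.2 ± 0.0433% to 35.9 ± 0.589% (SD, n = 2), a difference of −4.25 points (exact permutation p = 0.33). The H3K36me2 lists also covered less of the genome at 3 h, 401 and 414 Mbp against 458 and 441 Mbp without UV, with the same number of peaks, and the part of this in the lower share was not tested. There were 466 sites (6.53%, against 4.19% of all peaks) under both lists without UV and neither at 3 h. The opposite pattern was found at 112 sites (1.57% against 2.2%).

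The difference after UV moved with GC content. Among the 1012 sites in the lowest of the 4 GC groups (16.7% to 41.3% GC), 52.2% and 51.1% were under H3K36me2 without UV and 51.5% and 51.6% at 3 h, a difference of −0.0988 points (exact permutation p = 1). Among the 2792 sites in the highest (52% to 87.3% GC), the shares were 55.8% and 63.0% without UV and 40.8% and 41.0% at 3 h, a difference of −18.5 points (exact permutation p = 0.33). The other CTD peaks differed by 2.02 points in the lowest and by −13.4 points in the highest GC group (exact permutation p = 0.33 each). For any overlap the gap between the sites and other peaks of the same GC group was 23.6, 14.5, 11.0 and 7.47 points. These values run from the lowest to the highest group, in 4 of 4 lists each (exact sign-flip p = 0.13 each). At the centre base this gap was 5.19 ± 1.49 points in the lowest group (SD, 4 of 4 lists, exact sign-flip p = 0.13). It was 1.93 ± 2.38 in the second and 0.942 ± 2.07 in the third (SD, 3 of 4 lists and exact sign-flip p = 0.375 each). The sites of the highest GC group differed from other peaks of the same group by −1.18 ± 1.81 points (SD, higher in 1 of 4 lists, exact sign-flip p = 0.375). With at least 50% of the peak covered they were under it less often in all 4 lists, a difference of −3.43 ± 1.299 points (SD, n = 4; exact sign-flip p = 0.13). From the lowest to the third GC group this measure gave gaps of 7.81, 2.72 and 0.686 points. The sites were higher there in 4, 3 and 2 of 4 lists. Among the 137 narrowest sites (170 to 280 bp) the direction after UV was the opposite, with 34.3 ± 1.03% without UV and 39.8 ± 0.516% at 3 h (SD, n = 2; exact permutation p = 0.33), while the other peaks of these widths had 29.6% and 28.1%.

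The H3K36me2 peaks on the sites were wider than H3K36me2 peaks in general, and their fold enrichment lay on either side of the general value. Without UV, 4780 and 5111 H3K36me2 peaks lay on the sites in replicates 1 and 2, with median fold enrichments of 1.89 and 1.87 against 1.88 and 1.85 for all H3K36me2 peaks. At 3 h there were 3920 and 4033, with 1.85 and 1.78 against 1.89 and 1.82. The mean difference was −0.012 ± 0.0307 (SD, n = 4 lists, higher in 2 of 4, exact sign-flip p = 0.5). Their median widths were 1142 and 1061 bp without UV and 974 and 960 bp at 3 h, against 621, 611, 556 and 582 bp for all. A wide H3K36me2 peak is more easily met by an overlap of 1 bp, so width entered the choice of these peaks. It was not compared with the width of H3K36me2 peaks on other CTD peaks. The median −log10 p of the H3K36me2 peaks on the sites was higher in each list, 2.05, 2.01, 2.004 and 2.03 against 1.92, 1.87, 1.93 and 1.91. The H3K36me2 peaks on other CTD peaks had median fold enrichments of 1.896, 1.87, 1.88 and 1.82, above those on the sites in each list.

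The sites with the strongest H3K36me2 were described with their CTD values in each list. At chr10:81655557-81656689, 219071 bp from the start of NRG3, which encodes a ligand of the ERBB4 receptor, H3K36me2 was enriched 3.34- and 3.42-fold without UV and 3.22- and 3.38-fold at 3 h. The CTD values there were 2.08, 1.65 and 1.73 without UV and 1.87, 2.15 and 1.67 at 3 h. At chr10:118840897-118844337, in an intron of LINC03036, the H3K36me2 values were 2.85 and 2.93 without UV and 2.67 and 3.06 at 3 h, and the CTD values were 1.79, 1.597 and 1.85 without UV and 1.86, 1.82 and 1.93 at 3 h. Further sites were in an intron of LINC02137, near PRKG2 and near MAGI3, and all 5 were intergenic with respect to protein-coding genes. At all 5 the H3K36me2 values without UV and at 3 h overlapped in range.

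By position, 275 sites (3.85%) were centred within 1 kb of a protein-coding gene's start, against 2.1% of all peaks. Peaks shared with 4 other CTD lists, the class most like the sites, had 3.82%. Gene bodies held 3645 of the sites (51.1% against 49% of all peaks) and intergenic regions 3214 (45.1% against 48.9%). The median distance to the nearest such start was 38607 bp for the sites and 60956.5 bp for the other peaks. H3K36me2 differed between these positions. Of the promoter sites, 44.2 ± 3.86% overlapped H3K36me2 without UV and 24.9 ± 1.29% at 3 h (SD, n = 2). In gene bodies the shares were 51.4 ± 3.03% and 38.8 ± 0.0582%, and in intergenic regions 65.4 ± 0.682% and 57.8 ± 1.74% (SD, n = 2 each). In each position both 3 h lists were below both lists without UV (exact permutation p = 0.33 each). The other CTD peaks had the same order, with 29.0% and 19.1% of those at promoters, 35.0% and 29.6% of those in gene bodies, and 45.8% and 43.0% of the intergenic ones. At the centre base of promoter sites the shares were 17.8 ± 2.57% and 9.27 ± 0.771% (SD, n = 2), and the other promoter peaks gave 18.2% and 11.4%.

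**Figure D4:**
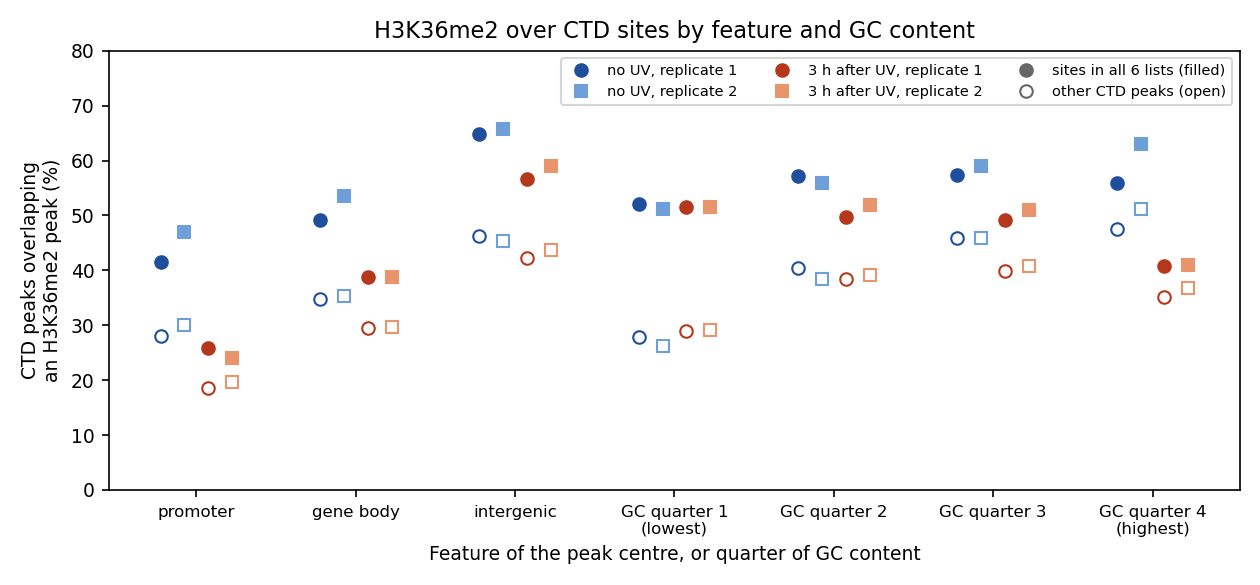
Percent of CTD peaks overlapping an H3K36me2 peak (vertical axis) by position of the peak centre and by group of GC content, for the 7134 sites (filled) and the other CTD peaks (open) in each of the 4 H3K36me2 lists. The filled symbols lie above the open symbols of the same list in every class, and the distance between blue (no UV) and red (3 h) is largest among promoters and in the highest GC group and near 0 for the sites of the lowest GC group.

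The promoter sites with the strongest CTD values were at RBM44, C17orf78, ABCD3, PJA1 and C3orf62. The RBM44 site, chr2:237797923-237799950, which also lies in an intron of LRRFIP1, had CTD values of 1.82, 1.91 and 1.90 without UV and 1.85, 1.83 and 1.82 at 3 h, and H3K36me2 values of 2.18 and 1.73 without UV and 1.62 and 1.74 at 3 h. Its middle 300 bases hold 48 CpG. The ABCD3 site, chr1:94417526-94418960, touches a coding exon of this peroxisomal transporter gene, holds 38 CpG and had CTD values between 1.799 and 2.07. The sites of ABCD3, of PJA1, which encodes a ubiquitin ligase, and of C3orf62 lay under no H3K36me2 peak in any list, while that of C17orf78 lay under 3.

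The sequence of the sites was richer in GC than that of other CTD peaks. The median GC content of the 300 bases around the centre was 49.7%, with quartiles of 44.7% and 55%, against 46.3%, with quartiles of 41% and 51.7%, for the other peaks. This held within each width class, from 48.3% against 45.7% in the narrowest to 50% against 48% in the widest. GC content rose with the number of lists sharing a peak, from 43.7% in no other list to 46%, 47.3%, 48.3%, 49% and 49.7%. CpG counts were 4 per 300 bases against 3, and the steps TT or AA, which include the dipyrimidine TT at which UV lesions form, numbered 41 against 47. Peaks shared with 4 other CTD lists were near the sites, with 4 CpG and 42 of these steps.

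Of 4 motifs searched on both strands of the 300 bases around the centre, the GC box GGGCGG was present in 764 sites (10.7%, against 7.12% of all peaks), the E-box CACGTG in 334 (4.68% against 3.87%), the AP-1 motif TGANTCA in 569 (7.98% against 9.13%) and a run of 10 T in 646 (9.06% against 9.24%). In the highest GC group the GC box was present in 20.6% of the sites against 18.5% of all peaks, CACGTG in 6.55% against 5.98%, TGANTCA in 5.77% against 6.17% and the run of 10 T in 2.83% against 4.19%.

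The sites were unevenly spread over the chromosomes. Chromosome 22 held 78.1 sites per 10 Mbp of sequence without gaps, chromosome 17 53.8, chromosome 19 46.7 and chromosome 20 43.5, against a genome-wide 24.5. Chromosome 13 held 5.61 and chromosome X, with 13 sites, 0.839. The peaks of replicate 1 without UV as a whole ranged from 41.4 per Mbp on chromosome X to 277 per Mbp on chromosome 22, a 6.69-fold span against 93.1-fold for the sites. Over the 23 chromosomes the rank correlation of site density with the share of bases under CTD peaks was 0.971 and with GC content 0.741. Both are descriptions, since a chromosome with more bases under peaks in every list gives more chances of overlap.

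Of 19969 protein-coding genes, taken with 1 kb on either side, 3308 (16.6%) held at least 1 site. Among genes that act in nucleotide excision repair, DDB1 and DDB2, the subunits of the UV-damaged DNA-binding complex, were the 2 of 9 damage recognition genes with a site. The DDB2 site lay under H3K36me2 in all 4 lists and the DDB1 site in none. Of 17 genes of damage verification and incision 3 held sites, namely CDK7 and MNAT1 of the TFIIH kinase with 2 each and the helicase gene ERCC2 with 1. None of 6 genes of transcription-coupled repair did, and 3 of 14 of repair synthesis and ligation did (RFC1, POLD1 and RFC2). The NER lists thus held sites in between 0 and 22.2% of their genes, beside 16.6% of all genes.

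Of 6 H3K36 methyltransferase genes other than ASH1L, 4 held 1 site each: NSD1, NSD2 and NSD3, which make H3K36me2, and SETD2, which makes H3K36me3. The demethylase genes KDM2A and KDM2B held 1 site each and KDM4B 2, 3 of 5 genes in all. These genes are long, with medians of 112 kb and 152 kb against 27.5 kb for all genes, and their 0.656 and 0.406 sites per 100 kb compare with 0.329 over all genes. Of 13 genes of the ASH1L complex and H3K36 methylation readers, DNMT3A and RBBP4 held 2 each and MSH6 1. Of 14 H3K4 methyltransferase genes and partners, KMT2D held 1, and neither of the 2 FACT genes held any. Sites were also held by 4 of 20 checkpoint genes (RAD9A with 4, BRCA1 with 2, CLSPN and TP53BP1 with 1 each), by 4 of 20 p53 targets (DDB2, GADD45A, RRM2B and TP53I3) and by 3 of 15 osteoblast genes (ALPL, RUNX2 and SOST). That is 20% of the checkpoint, p53 target and osteoblast genes each, near the 16.6% of all protein-coding genes. The shares were 23.1% for the ASH1L complex and readers and 7.14% for the H3K4 list. The 18 genes at common fragile sites had 18 sites in 8 genes, but only 0.0645 per 100 kb. Densities above that of all genes were not limited to the H3K36 enzymes. They were 0.681 per 100 kb for the ASH1L complex and readers, 0.679 for checkpoint genes and 0.582 for p53 targets. Among the repair lists, damage recognition had 0.586, verification and incision 0.552, repair synthesis and ligation 0.499 and transcription-coupled repair 0. Osteoblast genes had 0.239 and the H3K4 list 0.0574.

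Among single genes, the splicing regulator RBFOX1 held the most sites, 10 in 2474 kb, followed by AGAP1 with 8, CTNNA2 with 7 and MAD1L1, a spindle checkpoint gene, with 7 that are also counted for an overlapping gene model. Per length, ARAP1 with 3.69 sites per 100 kb, CCDC57 with 3.59, HPCAL1 with 3.21, CABCOCO1 with 2.89 and NPAS2, a circadian transcription factor gene, with 2.83 led the genes of at least 100 kb, of which 95% had at most 1.36. In HPCAL1 all 4 sites lay under H3K36me2 in all 4 lists. In CCDC57 1 of 4 did in each list without UV and 0 of 4 at 3 h, and in MAD1L1 4 of 7 did in each list without UV and 0 and 2 at 3 h.

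Sites that were present in the 3 lists without UV and in no list at 3 h served as a further comparison. There were 11497 of them, 564 bp wide at the median and with a GC content of 46.3%. H3K36me2 overlapped 42.8 ± 0.258% of these without UV and 39.2 ± 0.301% at 3 h (SD, n = 2). The sites present in all 6 lists were higher by 11.1 ± 4.19 points in 4 of 4 lists (SD, exact sign-flip p = 0.13) and, at the centre base, by 1.76 ± 3.07 points in 2 of 4 lists (SD, exact p = 0.5).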

How the data were processed

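Broad peaks of the Flag-tagged CTD (6 lists) and of H3K36me2 (4 lists) were analysed as deposited. The authors aligned trimmed reads to hg38 without chromosome Y (BWA 0.7.17-r1188), kept a mapping quality of at least 30, removed blacklisted regions and called broad peaks per replicate with MACS2 2.2.7.1. The deposited fold enrichment is a ratio of ChIP to control. The deposited −log10 p-value and −log10 q-value are those of the caller. H3K36me2 was called against inputs pooled over duplicates, and the CTD against empty-vector libraries, pooled at 3 h and matched without UV. The H3K36me2 lists combine single-end and paired-end runs of a replicate. Inputs and empty-vector libraries have no list of their own.

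Members and gene lists were chosen with earlier results of these data known. Where several peaks of a list overlapped a site, the highest fold enrichment and the highest −log10 p were taken. Features came from GENCODE release 44, with promoters 1 kb either side of protein-coding starts. Peaks were divided by width and by GC content into 4 groups of nearly equal size. Percentages were compared over lists by two-sided exact permutation tests (2 lists against 2, smallest p = 0.33) or sign-flip tests (4 lists, smallest p = 0.13), so none could pass 0.05. Sites were not treated as replicates. The precision rests on the spread between lists. The sites named were the 10 with the highest CTD value in their weakest list, the leading 5 by H3K36me2, in promoters and under no H3K36me2 peak, all listed genes with sites, the 5 genes with most sites and the 5 with most per length, and the peaks at the threshold. The functions were tested on simulated data. Calculations used SciPy 1.17.1, NumPy 2.4.6 and pandas 2.3.3 under Python 3.11.15, and plots matplotlib 3.10.9. The sequences of some leading sites are not reported here.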

Additional observations from a re-analysis of the deposited data

How the results depend on the processing

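The number of sites depended strongly on what counts as shared. It was 186 with at least 50% of the peak covered in each list, 1276 for regions covered by all 6 lists at once and 2 when every list had to reach a −log10 p of 2. Starting from each of the other 5 lists gave 4767 to 6815. Leaving out 1 CTD list gave 9017 (without no UV replicate 1) to 16545 (without no UV replicate 3), with 13754 without no UV replicate 2 and 12898, 13154 and 11082 without 3 h replicates 1, 2 and 3. The cause was not tested, apart from the smaller number of lists required. The share under H3K36me2, 57.4% without UV and 46.8% at 3 h, was 35.2% and 26.7% at the centre base, 33.5% and 25.3% with at least 50% of the peak covered, 33.1% and 26.0% for H3K36me2 peaks that reached a −log10 p of 2, 9.53% and 6.46% for those that reached 3, and 10.6% and 6.23% with a −log10 q of 1.3 or more. It was 41.4% and 35.0% at the centres of the common regions, and 51.9% and 47.0% for sites with at least 50% overlap. Leaving out each list gave 51.0% to 58.8% without UV and 44.7% to 47.3% at 3 h. The difference after UV stayed negative in all 18 alternatives, from −12.0 to −3.08 points, with −6.22 without CTD no UV replicate 1 and −4.84 for sites with at least 50% overlap. The width and GC groups are not among these 18. For any overlap the difference was 5.47 points in the narrowest group and −0.0988 in the lowest GC group. It was more strongly negative in the other width and GC groups. Taking the replicate number as a block left the difference over all sites at −10.6 points (−9.66 and −11.5 in replicates 1 and 2, exact sign-flip p = 0.5, the smallest that 2 pairs allow). With 2 pairs the numbers do not show that the samples were paired. The gap to the other peaks kept its direction in 27 of the 28 alternatives counted for it. Among these the exception was the centre base in the highest GC group (−1.18 points). At the centre base it was 5.19, 1.93 and 0.942 points in the lower 3 GC groups. It was 9.55 and 2.96 points for H3K36me2 peaks that reached a −log10 p of 2 and of 3, and 3.12 points for a −log10 q of at least 1.3. Outside these 28 it was also negative with at least 50% of the peak covered in the highest GC group (−3.43 points). The same holds among promoter peaks at the centre base (−1.24 points) and with at least 50% covered (−1.61 points). The cause was not tested. Promoters held 5.89% of the sites when any overlap counted and 6.04% when taken as 2 kb either side, with which gene bodies held 49.5%. With the overlapping peak that shared most bases, the median CTD value was 1.78 in 3 h replicate 1 and 1.76 in 3 h replicate 3. The GC content over whole peaks was 49.3%. The divisions by GC, the centre base within width groups and the common regions as H3K36me2 targets were chosen after seeing the data.

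The lists carry no depth, so counting error of single peaks cannot be given, and absence from a list of fixed length is not absence of binding. The smallest p-values the tests allow are given with the methods. The labels do not say that replicates were separate cultures beyond naming them biological replicates.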

Other observations

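The sites gathered in some parts of the genome. Of 2875 windows of 1 Mbp, 1156 held none, and the 287 windows with the most sites held 40.4% of them, whereas the 287 windows with the most CTD peaks of any kind held 18.8% of all peaks. The window with the most, 20 sites, was chr17:78000001-79000000, which includes SOCS3, BIRC5, TIMP2 and TK1. Windows with 18 sites were found at chr17:81000001-82000000 (ACTG1, SIRT7), chr7:5000001-6000000 (ACTB, FSCN1), chr17:75000001-76000000 (GRB2, ITGB4), chr19:49000001-50000000 (PRMT1, IRF3) and chr7:6000001-7000000 (RAC1, EIF2AK1). These 6 windows have a GC content of 47.9% to 57.9%. Across the windows the rank correlation of the number of sites was 0.863 with the share of bases under CTD peaks, 0.554 with GC content, and 0.480 and 0.280 with the share under H3K36me2 peaks without UV and at 3 h. The median distance between neighbouring sites was 129911 bp, and 440 gaps were shorter than 10 kb.

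Peaks that lacked only 1 of the 5 other lists lacked no UV replicate 3 most often (9411 peaks) and 3 h replicate 3 least often (3948). The numbers were 6620 for no UV replicate 2, 5764 for 3 h replicate 1 and 6020 for 3 h replicate 2.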
